A study of Mus musculus with 4 samples.

Results

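The collagen chains are the genes named Col, a type number, a and a chain number, such as *Col1a1*. Of the 32286 features in the spatial transcriptomics of mouse dorsal skin, 44 carried such a name, and they were described across epidermis, hair follicle, dermis, adipose tissue and muscle. The skin was taken at postnatal day 38 (P38) from 3 mice of the genotype *Krox20-CreERT; R26-tdTomato*, in which *CreERT* sits in the *Krox20* locus and the tdTomato reporter in the *R26* locus. All mice had received 4-hydroxytamoxifen at P2, so no untreated or reporter-free group exists. Each of the 4 slices carried sections of the same 3 mice, and the slices are therefore technical replicates, with p-values that measure only the spread between slices.

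A collagen is built from 3 chains wound into a triple helix, and each chain comes from its own gene. Fibrillar collagens (types I, III, V and XI here) form the fibrils that give dermis its tensile strength. Basement membrane collagens form the sheet under epithelia and around vessels, fat cells and muscle fibres, and type VII anchors that sheet to the dermis. FACIT collagens sit on the surface of fibrils, transmembrane collagens such as type XVII span the cell membrane, and the remaining chains here are mostly those of type VI, which forms beaded filaments, and type VIII, which forms short-chain networks.

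A Visium spot captures polyadenylated RNA from a small area that can hold several cells, and values are given as counts (UMIs, unique molecular identifiers) per 1000000 counts of the summed spots (CPM). Within such sums, fewer cells of a type and less RNA per cell cannot be told apart. The slices held between 19393026 and 26910422 UMIs, and the 4 slices shared 750 spot barcodes because the capture grids use one set. Spots were given to a region by marker lists that hold no collagen. Of 6411 spots, 559 were epidermal, 2869 follicular, 375 dermal, 561 adipose and 884 muscle spots, and 1163 had no clear region. Of the 68 markers found in the files, 66 were highest in the spots of their own list, with the follicle split into outer root sheath, sebaceous gland, and inner sheath with matrix and shaft. The same markers had set the spots, so this count was largely fixed by the rule and is no test of the regions. The median spot held 7092 to 10530 UMIs in the epidermis and 12779 to 15482 in muscle, depending on the slice. The regions were not pure. The summed dermal markers (*Dcn*, *Lum* and 8 others) stood at 3204 CPM in dermal spots, 1585 in epidermal spots and 501.1 in follicle spots, and the summed epidermal markers at 4976 CPM in dermal spots against 1052 in muscle spots. The summed outer root sheath markers were alike in dermal and follicle spots (5239 ± 287.8 and 5237 ± 213.6 CPM). The summed sebaceous gland markers stood at 2088 CPM in epidermal and 969.7 in follicle spots. No dermal or epidermal marker was at 0 in any region.

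Collagen transcripts made up 0.917% of all UMIs, and *Col1a1*, *Col1a2* and *Col3a1* together gave 87.1% of them. Of the 44 chains, 28 had at least 200 UMIs over the 4 slices, and 19 of these 28 had their highest mean level in dermal spots. *Col7a1*, *Col17a1*, *Col4a6* and *Col23a1* were highest in epidermal spots, *Col4a1*, *Col11a1* and *Col12a1* in adipose spots, and *Col6a6* and *Col13a1* in muscle spots. The follicle had the lowest level for 14 chains and muscle for 9. A region was compared with the mean of the other 4 with edgeR on the sums per slice and region, and a call needs a Benjamini-Hochberg adjusted p under 0.05 and an absolute log2 fold change of at least 1. The low-count filter kept 27 of the 44 chains, and *Col13a1* is the chain with 200 UMIs that it removed. Dermal spots had 14 chains called, all higher, where 6.09% of the 12054 genes tested were called higher and 0.904% lower. Follicle spots had 13 chains called, all lower, beside 6.59% of all genes called lower and 2.36% higher. In epidermal spots 6 chains were called higher and 2 lower (7.7% and 4.24% of all genes), in adipose spots 3 were called lower (2.55%, with 0.846% of genes higher), and in muscle spots 1 was called higher and 9 lower (5.67% and 6.7%).

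**Figure D1:**
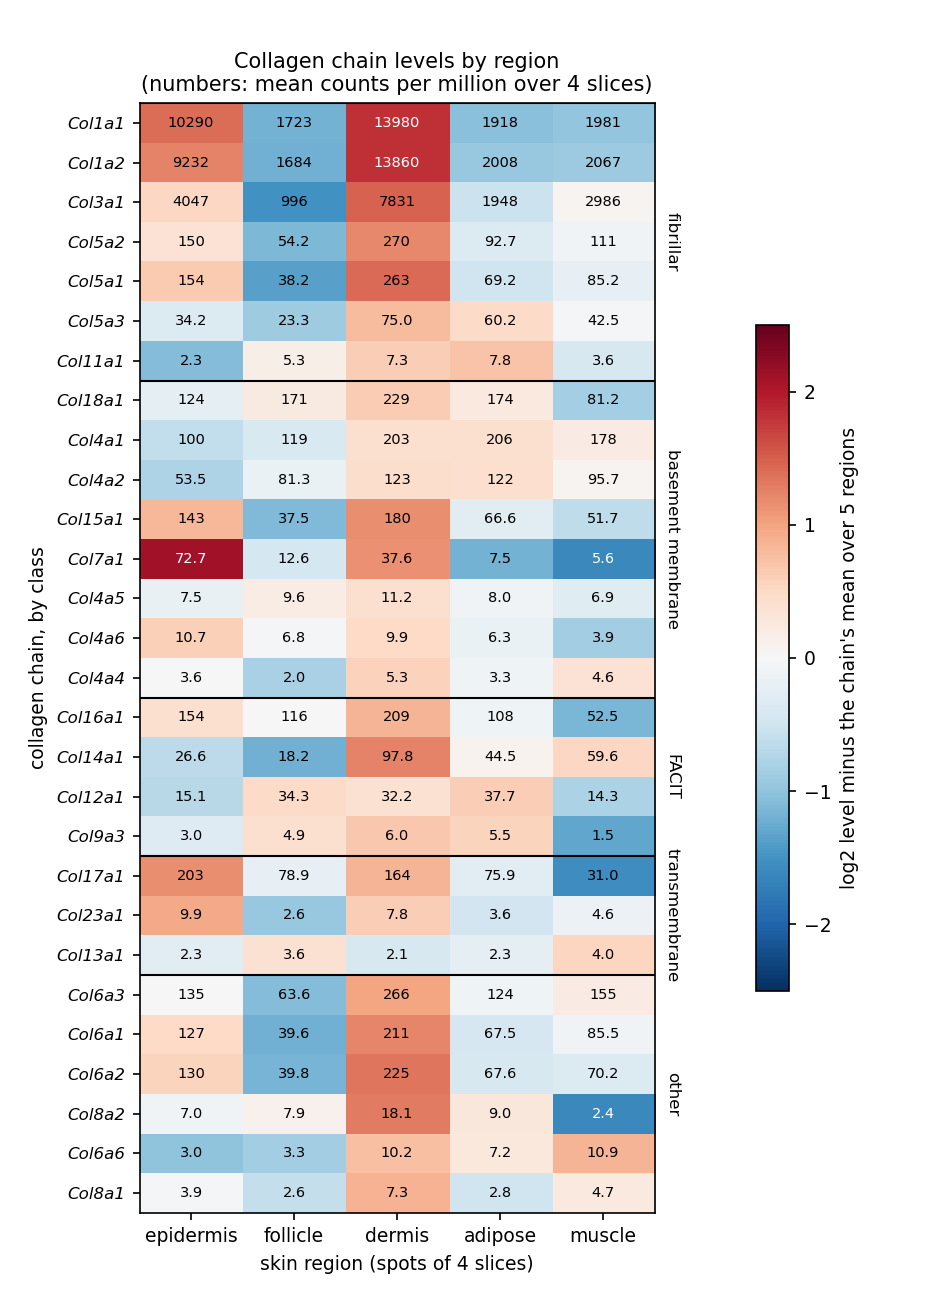
Mean level of the 28 chains with at least 200 UMIs (rows, by class) in the 5 regions (columns); numbers are mean CPM over 4 slices, and colour is the log2 level minus the chain's mean over the 5 regions. Dermal spots hold the highest level of 19 chains, whereas *Col7a1* and *Col17a1* are highest in epidermal spots at 72.7 and 203 CPM.

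**Figure D2:**
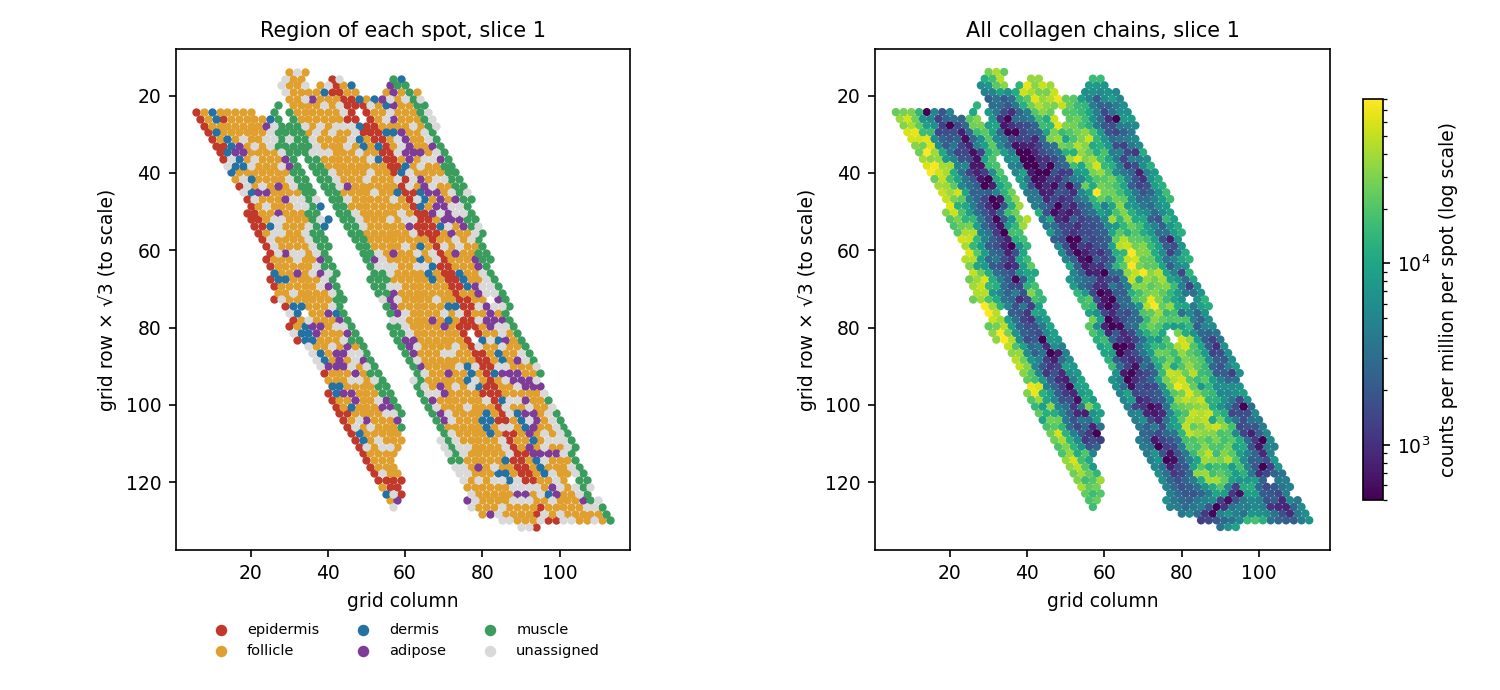
Spots of slice 1 on the capture grid, drawn to scale, coloured by region (left) and by the summed CPM of all collagen chains on a log scale (right). The bright collagen band follows the epidermal line and fades toward the follicle-rich middle of the skin, and the side of the muscle layer is again brighter.

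The class totals differed in how far they rose in the dermis. Fibrillar chains summed to 36290 ± 1814 CPM (SD, n = 4 slices) in dermal spots, 23910 ± 2759 in epidermal, 7280 ± 440.8 in muscle, 6107 ± 652.3 in adipose and 4527 ± 753.2 in follicle spots. The follicle value pools unlike parts. Sebaceous gland spots held 21680 ± 4430 CPM of fibrillar chains, outer root sheath spots 5029 ± 787.2, and spots of inner sheath, matrix and shaft 1234 ± 319.4. The dermal total was 3.48 times the mean of the other regions for fibrillar chains (log2 1.80 ± 0.10), 2.52 times for the type VI and VIII group, 2.0 times for FACIT chains, 1.65 times for transmembrane chains and 1.62 times for basement membrane chains (log2 0.69 ± 0.06). The fibrillar total is mostly *Col1a1*, *Col1a2* and *Col3a1*. Without them it was 619.0 CPM in dermal, 347.3 in epidermal, 246.0 in muscle, 232.3 in adipose and 124.0 in follicle spots, a smaller dermal excess. In all 4 slices each class total was higher in dermal spots than in the mean of the other regions. The transmembrane total was nevertheless highest in epidermal spots, at 214.8 ± 22.02 CPM against 173.5 ± 17.5 in dermal spots. In slice 3 these values were near equal (189.3 and 190.6 CPM). The median log2 fold change of the 7 fibrillar chains in the dermal contrast was 1.71, and that of the 8 basement membrane chains 0.56, beside a median of -0.04 over all genes tested. In the follicle contrast the same classes had medians of -1.44 and -0.30, beside 0.01 over all genes. By class, the dermal calls took 5 of 7 fibrillar chains, 2 of 8 basement membrane chains, 2 of 4 FACIT chains, 1 of 2 transmembrane chains and 4 of 6 of the remaining chains.

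**Figure D3:**
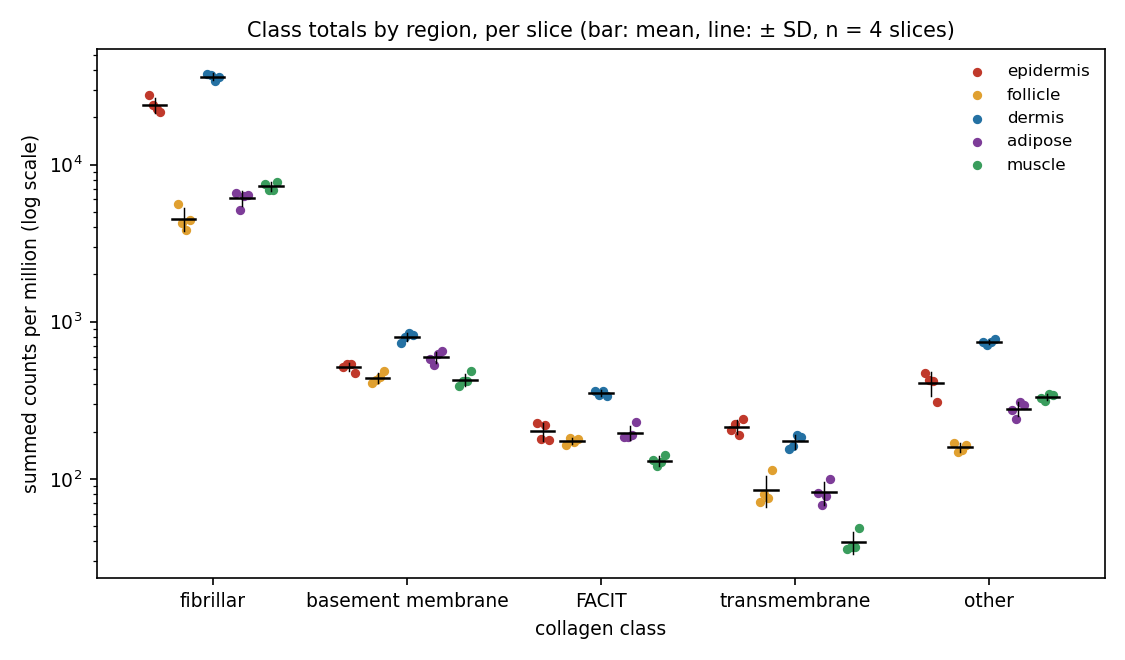
Summed CPM of each collagen class (horizontal axis) in each region on a log scale, with 1 point per slice, a bar at the mean and a line of ± SD over 4 slices. Fibrillar totals run from 4527 CPM in follicle to 36290 in dermal spots, a wider range than the basement membrane totals of 428.8 to 799.7.

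*Col1a1* and *Col1a2*, which encode the chains of type I collagen, the main fibrillar protein of skin, were highest in the dermis and next highest in the epidermal spots. *Col1a1* (ENSMUSG00000001506, GRCm38 chr11:94936224-94953042) stood at 15980, 12880, 12580 and 14490 CPM in the dermal spots of slices 1 to 4 and at 12650, 9452, 9644 and 9399 CPM in the epidermal spots. The dermal value was the higher in each slice, although the dermal spots of slice 3 lay below the epidermal spots of slice 1, and the difference between both regions was not called (log2 fold change of epidermal over dermal spots -0.36 ± 0.16 SE, edgeR adjusted p = 0.118, with 7.35% of all genes called between these regions). Against the mean of the other regions *Col1a1* rose in dermal spots by 2.22 ± 0.11 on the log2 scale (edgeR adjusted p = 2.19e-15) and in epidermal spots by 1.77 ± 0.11 (adjusted p = 1.03e-13). The follicle, adipose and muscle spots held 1723 ± 403.5, 1918 ± 368.5 and 1981 ± 354.0 CPM, and all 3 were called lower. *Col1a2* (ENSMUSG00000029661, chr6:4504814-4541544) had 13360, 14810, 13670 and 13600 CPM in dermal spots and 9761, 9513, 9162 and 8493 CPM in epidermal spots, so that every dermal value exceeded every epidermal one, but the log2 difference of -0.51 ± 0.11 (edgeR adjusted p = 0.000749) stayed under the fold limit. Epidermal spots carry dermal markers at about the level given above, and the part of neighbouring dermal cells in the epidermal collagen level was not tested. Per 1000 UMIs of the dermal marker list, *Col1a1* had 6523 ± 1123 UMIs in epidermal, 4419 ± 868.8 in dermal and 1812 ± 393.0 in muscle spots. Chains differed on this scale. *Col1a2* had 5839 ± 350.6 in epidermal and 4339 ± 218.9 in dermal spots. *Col3a1* (2554 ± 490.9 and 2450 ± 263.8) and *Col6a3* (84.95 ± 12.71 and 83.51 ± 7.248) were level between these regions within their spread.

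*Col3a1*, the chain of type III collagen, which accompanies type I in extensible tissue, was distributed differently from type I in the deep layers. It had 7962, 9092, 7002 and 7269 CPM in dermal spots, 4968, 4529, 3421 and 3268 in epidermal spots and 2997, 3181, 2768 and 2999 in muscle spots. The muscle values lay above all adipose values (1823 to 2109 CPM) and above all follicle values (796.6 to 1233 CPM), and the dermal values above those of every other region. The dermal contrast gave a log2 fold change of 1.77 ± 0.11 (edgeR adjusted p = 7.99e-14) and the follicle contrast -1.84 ± 0.13 (adjusted p = 3.78e-12). The count ratio of *Col3a1* to *Col1a1* rose from 0.3903 in epidermal to 0.5599 in dermal, 0.5814 in follicle, 1.03 in adipose and 1.525 in muscle spots (means on the log2 scale, converted back). Its size also depends on how well each transcript is captured, so only the change between regions is described. In each of the 4 slices the ratio was higher in muscle than in adipose spots and higher in adipose than in dermal or follicle spots, with a log2 difference of -1.45 ± 0.06 (SD) between dermal and muscle spots. The exact sign-flip test over 4 slices cannot go below a two-sided p of 0.125, which is the value here (0.2244 after adjustment over 70 ratio comparisons).

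The chain ratios also differed between slices. The ratio of *Col1a1* to *Col1a2* was near 1 in every region (0.9447 in adipose to 1.107 in epidermal spots), yet slice 1 had the highest and slice 2 the lowest value in all 5 regions, and the 4 slices kept a single order throughout. In dermal spots the log2 ratio was 0.26, -0.20, -0.12 and 0.09 in slices 1 to 4. Slice 2 also had the highest ratio of *Col3a1* to *Col1a1* in all 5 regions. The *Col6a3* to *Col6a1* ratio, between chains of type VI collagen, ranged from 1.064 in epidermal to 1.843 in adipose spots and was lower in epidermal than in adipose or muscle spots in 4 of 4 slices (exact p = 0.125, the smallest possible).

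**Figure D4:**
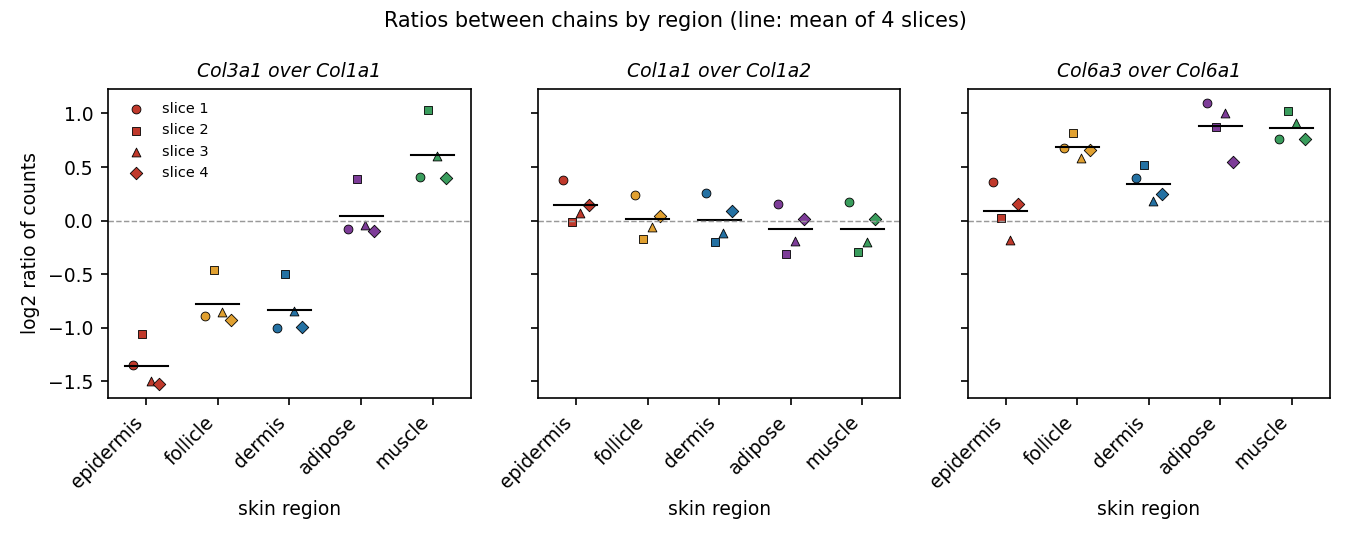
Log2 ratio of the counts of 2 chains in each region, with 1 symbol per slice and a line at the mean of 4 slices; the dashed line marks equal counts. *Col3a1* over *Col1a1* climbs from -1.36 in epidermal to 0.61 in muscle spots, and for *Col1a1* over *Col1a2* the slices keep the same order in every region.

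The minor fibrillar chains split into those that followed type I and those that did not. *Col5a1* and *Col5a2*, whose type V collagen controls the diameter of type I fibrils, stood at 254.2, 281.4, 256.1 and 261.9 CPM and at 259.8, 278.7, 244.2 and 297.0 CPM in dermal spots. All of these exceeded the epidermal values (111.7 to 182.5 and 131.3 to 174.6 CPM), and both chains rose in the dermal contrast (log2 1.71 ± 0.10 and 1.43 ± 0.08, edgeR adjusted p = 2.36e-14 and 9.98e-15). *Col5a3*, the third type V chain, had 75.0 ± 13.9 CPM in dermal and 60.2 ± 5.56 CPM in adipose spots, and its dermal log2 fold change of 0.91 ± 0.11 missed the fold limit. It was called lower in the follicle (log2 -1.08 ± 0.09, adjusted p = 2.26e-11). *Col11a1*, best known from cartilage, rested on 459 UMIs, with 7.83 ± 1.79 CPM in adipose, 7.35 ± 1.80 in dermal and 2.25 ± 1.51 in epidermal spots. It fell in the epidermal contrast (log2 -1.31 ± 0.38, adjusted p = 0.00637), the opposite direction to type I, on 11 epidermal UMIs, and was no longer called without slice 1 (log2 -1.19, adjusted p = 0.0501). Its adipose and dermal levels did not differ beyond their spread.

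Among basement membrane chains, *Col4a1* and *Col4a2*, the pair that forms the network of nearly all basement membranes, had a ratio of highest to lowest region of 2.05 and 2.30, with the epidermis lowest. *Col4a1* had 180.6, 198.1, 220.4 and 213.2 CPM in dermal, 204.5, 180.1, 213.0 and 224.5 in adipose, 166.3, 181.0, 168.3 and 196.8 in muscle and 98.37, 104.1, 113.2 and 85.98 in epidermal spots. The dermal, adipose and muscle values overlapped and the epidermal ones lay below them all. *Col4a2* gave the same order of epidermis below the rest, with 53.5 ± 6.76 CPM there and 123.0 ± 16.1 in dermal spots, and the difference between epidermal and dermal spots was called (log2 -1.13 ± 0.11, edgeR adjusted p = 4.89e-09). Neither chain was called in any of the 5 contrasts with the mean of the other regions. The RefSeq starts of both genes lie on opposite strands of chromosome 8 and overlap by 22 bases. *Col4a5* and *Col4a6*, chains of a network of epithelial basement membranes whose starts lie 1343 bases apart on opposite strands of the X chromosome, were low (803 and 616 UMIs). *Col4a6* had 10.7 ± 3.52 CPM in epidermal and 3.86 ± 0.511 in muscle spots and was called lower in muscle (log2 -1.02 ± 0.21, adjusted p = 0.000157). This call was lost in 5 of 12 alternatives, among them those without slice 2 (-0.91) or slice 4 (-0.92). *Col4a5* and *Col4a4*, a chain known from the kidney filter, were not called in these contrasts.

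*Col15a1* and *Col18a1* encode related collagens that link basement membranes to the matrix around them, and the second is the source of endostatin. They differed in place. *Col15a1* had 167.9, 173.9, 195.3 and 181.1 CPM in dermal, 150.7, 144.6, 146.5 and 130.3 in epidermal and 37.10 to 38.15 in follicle spots, with no overlap between these regions. It rose in the dermal (log2 1.39 ± 0.08, edgeR adjusted p = 2.89e-14) and the epidermal contrast (1.09 ± 0.08, adjusted p = 2.57e-12), the second falling to 0.94 with spots thinned to 5500 UMIs. *Col18a1* was abundant in the follicle too, with 257.0 ± 28.3 CPM in outer root sheath spots beside 229.1 ± 23.3 in dermal spots, 115.1 ± 14.2 in spots of inner sheath, matrix and shaft, and 81.2 ± 16.5 in muscle spots. It was called lower in muscle alone (log2 -1.01 ± 0.08, adjusted p = 1.81e-11). This call near the fold limit was lost in 4 of 13 alternatives, among them those without slice 1 (-0.93) or slice 2 (-0.92).

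*Col7a1* and *Col17a1*, which fix the epidermis to the dermis, were both called higher in epidermal spots. *Col7a1* (ENSMUSG00000025650, chr9:108953586-108984875), the chain of the anchoring fibrils, had 68.2, 99.3, 63.7 and 59.4 CPM in epidermal spots, 30.1, 48.4, 42.88 and 29.2 in dermal spots and 4.77 to 6.55 in muscle spots. Every epidermal value exceeded every dermal one. The epidermal contrast gave a log2 fold change of 2.64 ± 0.15 (edgeR adjusted p = 3.3e-15), the largest of any chain fitted in the 5 contrasts, and epidermal over dermal spots 1.03 ± 0.19 (adjusted p = 0.00011). The call between epidermal and dermal spots sat near the fold limit. It was lost without slice 1 or slice 4, with library size alone, and with no margin or a margin of 0.75 between regions. Within the follicle its level was 55.4 ± 7.16 CPM in sebaceous gland, 13.97 ± 3.62 in outer root sheath and 4.22 ± 0.540 in inner sheath, matrix and shaft spots. *Col17a1* (ENSMUSG00000025064, chr19:47646344-47692094, minus strand), a hemidesmosome protein of basal keratinocytes, had 195.6, 211.2, 175.0 and 228.7 CPM in epidermal and 145.7, 152.4, 182.2 and 174.3 in dermal spots. These 2 ranges overlapped and the difference between them was not called (log2 0.39 ± 0.13, adjusted p = 0.0337). Its epidermal contrast was 1.49 ± 0.10 (adjusted p = 2.31e-13) and its muscle contrast -1.88 ± 0.12 (adjusted p = 4.26e-14). *Col17a1* also stood at 176.3 ± 46.8 CPM in sebaceous gland and 137.9 ± 28.7 in outer root sheath spots, against 23.9 ± 5.30 in inner sheath, matrix and shaft spots. Dermal spots carry epidermal markers (4976 CPM), and the part of neighbouring keratinocytes in the dermal *Col17a1* level was not tested.

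The upstream sequences of 2 fibrillar genes with their highest mean in dermal spots and of the 2 anchoring genes with theirs in epidermal spots are shown. They are RefSeq sequences on GRCm38.p6, read 5′ to 3′ on the gene's strand, within the 250 bases before the RefSeq start and without annotated exons. Capitals mark the motif CCAAT, the box named TATAAA, or the element spelled GGGCGG, on either strand.
Col3a1 (chr1:45311288-45311537, plus strand): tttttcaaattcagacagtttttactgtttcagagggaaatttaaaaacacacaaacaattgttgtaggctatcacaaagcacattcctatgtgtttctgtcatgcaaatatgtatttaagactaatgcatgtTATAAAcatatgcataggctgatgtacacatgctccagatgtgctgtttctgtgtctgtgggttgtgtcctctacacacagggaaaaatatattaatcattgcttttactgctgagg
Col1a2 (chr6:4505370-4505492, plus strand): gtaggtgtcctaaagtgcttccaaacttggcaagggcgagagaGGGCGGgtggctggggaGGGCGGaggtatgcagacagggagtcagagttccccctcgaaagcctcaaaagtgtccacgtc
Col7a1 (chr9:108953336-108953585, plus strand): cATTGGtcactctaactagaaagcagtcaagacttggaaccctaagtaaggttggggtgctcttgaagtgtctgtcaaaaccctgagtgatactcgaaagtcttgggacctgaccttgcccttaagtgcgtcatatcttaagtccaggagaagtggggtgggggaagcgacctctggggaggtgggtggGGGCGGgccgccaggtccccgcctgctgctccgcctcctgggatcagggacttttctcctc
Col17a1 (chr19:47692095-47692292, minus strand): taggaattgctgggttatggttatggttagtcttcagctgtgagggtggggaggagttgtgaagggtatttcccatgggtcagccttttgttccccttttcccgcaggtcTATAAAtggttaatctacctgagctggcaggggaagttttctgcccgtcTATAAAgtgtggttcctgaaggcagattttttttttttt
The *Col3a1* stretch held 1 match of TATAAA and the *Col17a1* stretch 2. The *Col1a2* stretch held 2 of GGGCGG and the *Col7a1* stretch 1 each of GGGCGG and CCAAT. With exons left out, the *Col1a2* and *Col17a1* stretches were 123 and 198 bases long and ended 126 and 53 bases before the RefSeq start. The whole windows of *Col1a2* and *Col17a1* each held 1 CCAAT that is absent from these stretches. The *Col1a2* stretch also lies inside the span given for that gene above. In the whole windows of 250 bases, GGGCGG was found for 15 of the 23 described chains with a RefSeq window, beside 32.7% of all 32851 windows, CCAAT for 10 of 23 (33.8% of all windows), TATAAA for 3 (12.4%) and TGANTCA for 1 (6.7%). *Col1a1*, *Col5a2*, *Col9a3*, *Col12a1* and *Col14a1* had no matched entry. The matches are letters in a window and say nothing of a factor's binding.

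FACIT chains had no common pattern. *Col14a1* and *Col12a1*, which both coat type I fibrils, were set apart from each other. *Col14a1* had 99.0, 91.42, 103.6 and 97.36 CPM in dermal, 62.35, 56.32, 60.16 and 59.68 in muscle, 41.3 to 49.1 in adipose, 13.5 to 36.2 in epidermal and 16.5 to 20.7 in follicle spots, and the first 3 regions did not overlap. It rose in dermal spots (log2 1.47 ± 0.09, edgeR adjusted p = 3.09e-13) and fell in follicle spots (-1.45 ± 0.09, adjusted p = 7.73e-14). *Col12a1* had 37.7 ± 8.79 CPM in adipose, 34.3 ± 3.41 in follicle, 32.3 ± 8.66 in dermal, 15.1 ± 4.13 in epidermal and 14.3 ± 4.25 in muscle spots. The first 3 did not differ beyond their spread, and its highest level was in outer root sheath spots (49.83, 66.02, 65.43 and 64.84 CPM). *Col12a1* was not called in any contrast with the mean of the other regions, but follicle exceeded epidermal spots (epidermal over follicle, log2 -1.20 ± 0.19, adjusted p = 6.94e-06, with 14.8% of genes called in that pair). *Col16a1*, a FACIT of epithelial and dermal matrix, had 209.3 ± 6.55 CPM in dermal and 161.2 to 189.2 in outer root sheath spots and fell in muscle (log2 -1.37 ± 0.08, adjusted p = 2.38e-14). Its dermal fold change of 1.00 ± 0.08 sat at the limit of a call, as did that of *Col17a1* (1.00 ± 0.11). The 2 calls were lost in 5 and 6 of 13 alternatives, apart from the reversal under another dermis definition given below. Both were lost without slice 3 (0.99 and 0.90) and with the slice as a replicate block (1.00 and 0.99). *Col9a3*, a chain of the cartilage collagen type IX, rested on 369 UMIs, of which outer root sheath spots gave 152, and had 10.2 ± 2.69 CPM there against 1.39 ± 0.376 in the inner sheath group and 1.52 ± 0.431 in muscle spots. It was called lower in muscle (log2 -1.55 ± 0.30, adjusted p = 8.33e-05).

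The other transmembrane chains were sparse. *Col23a1* (423 UMIs) had 8.53, 9.64, 12.4 and 8.86 CPM in epidermal spots and 2.40 to 2.89 in follicle spots, with no overlap, and rose in the epidermal contrast (log2 1.19 ± 0.21, edgeR adjusted p = 3.3e-05). *Col13a1* (362 UMIs), a chain known from the neuromuscular junction, had 4.01 ± 0.842 CPM in muscle spots and 5.11 ± 0.843 in spots of inner sheath, matrix and shaft, against 1.43 ± 0.175 in outer root sheath spots. It took the opposite place to *Col17a1* within the follicle.

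The type VI chains followed the dermis, with the exception of *Col6a6*. *Col6a1*, *Col6a2* and *Col6a3*, which assemble into one molecule, had 211.0 ± 15.6, 224.6 ± 6.90 and 266.1 ± 8.70 CPM in dermal spots and 39.6 ± 2.37, 39.8 ± 4.74 and 63.6 ± 3.36 in follicle spots. All 3 rose in the dermal contrast (log2 1.46, 1.61 and 1.17, edgeR adjusted p = 5.11e-14, 2.36e-14 and 3.2e-12) and fell in the follicle contrast. *Col6a6*, a chain that can take the place of the *Col6a3* product, had 8.99, 11.79, 12.7 and 10.01 CPM in muscle, 8.71, 6.27, 7.15 and 18.5 in dermal and 0.886 to 6.66 in epidermal spots, from 490 UMIs in all. It was the one chain called higher in muscle (log2 1.14 ± 0.20, adjusted p = 2.03e-05), and muscle and dermal spots did not differ beyond their spread. Single slices decided its calls, since without slice 2 the muscle value was 0.96, without slice 3 the follicle value was -0.86 in place of -1.03, and without slice 4 the epidermal value was -0.82 in place of -1.21. *Col8a2* and *Col8a1*, the short-chain type VIII pair known from vessels and cornea, had 18.1 ± 4.25 and 7.27 ± 2.81 CPM in dermal spots. *Col8a2* rose in dermal spots (log2 1.57 ± 0.22, adjusted p = 1.3e-06) and fell in muscle (-1.89 ± 0.23, adjusted p = 6.34e-08), whereas *Col8a1* was not called.

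The dermal result depended on how the dermis was defined. With the dermis taken as the spots within 8 grid steps of the epidermis that no other list claimed, and the dermal markers left unused, all 14 chains called higher had a log2 fold change below 0 (*Col5a1* -0.95, *Col3a1* -1.04), and 2 of 28 chains were called higher and 6 lower in the dermis, beside 3.61% and 8.39% of all genes. The follicle calls fell from 13 to 2, both lower, while the share of all genes called lower there fell from 6.59% to 3.29%. Those 539 spots held 604.9 ± 86.2 CPM of the dermal markers against 3204 in the dermal spots above, and 4831 ± 744.8 CPM of collagen. The dermal calls therefore describe spots rich in *Dcn*, *Lum* and the other dermal markers.

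Distance from the epidermis used no collagen, and the dermal list entered it only through the margin that an epidermal spot had to keep over the other lists. Grid steps were counted from epidermal spots with at least 2 epidermal neighbours, from step 0 (454 spots) to step 9 (281 spots). All collagens together had 24800 CPM at step 0, 29930 at step 1, 19160 at step 2, 3591 at step 5, 3294 at step 6 and 9523 at step 9, so the profile had a high superficial and a lower deep arm. The log2 ratio of step 0 to step 5 was 2.78 ± 0.17 (SD, n = 4), and 3.39 when every epidermal spot served as an anchor. *Col1a1*, *Col1a2*, *Col3a1*, *Col5a1*, *Col5a2*, *Col6a1* and *Col6a2* peaked at step 1 in 4 of 4 slices. *Col1a1* had 13790, 11060, 10140 and 11340 CPM at step 1 and 1067, 566.2, 808.7 and 887.3 at step 6, and *Col3a1* recovered further at depth, from 766.5 ± 89.2 CPM at step 5 to 3319 ± 951.7 at step 9. At step 9, 62.3% of spots were muscle spots, and the muscle marker list rose from 1351 CPM at step 2 to 24730.

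*Col7a1* was the only described chain with its peak at step 0 in all 4 slices. It had 71.0, 100.6, 68.0 and 69.7 CPM there and 7.92, 8.06, 10.7 and 14.1 at step 3. *Col17a1* stayed level over the first steps (207.2 ± 20.4, 182.2 ± 24.3 and 214.5 ± 35.9 CPM at steps 0, 1 and 2) and then declined to 28.1 at step 7. A further group had a lower mean at step 0 than at step 3, its highest, where 53.3% of spots were follicular. It held *Col18a1* (120.7 CPM at step 0 and 258.9 at step 3), *Col12a1* (13.4 ± 1.86 and 60.8 ± 9.96), *Col9a3* (2.30 and 12.9), *Col4a1* (96.8 and 200.3), *Col4a2* (52.3 and 121.8), *Col4a5* (6.86 and 16.1) and *Col11a1* (2.27 and 8.11). In slices 1 and 4 *Col4a1* was highest at step 9, as were *Col4a2* in slice 4 and *Col4a5* in slice 3, and *Col11a1* peaked at step 5 in slice 1 and step 1 in slice 4. The outer root sheath markers peaked at step 2 and the adipose markers at step 3. *Col14a1* had one rise at step 2 (51.0 ± 4.37 CPM) and a larger one at step 9 (68.5 ± 12.4), with 18.1 ± 0.853 at step 5. *Col6a6* was highest at step 9 (12.1 ± 6.40 CPM) in 3 of 4 slices, and *Col13a1* between steps 6 and 8 (5.59 to 6.31 CPM against 0.800 at step 3).

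**Figure D5:**
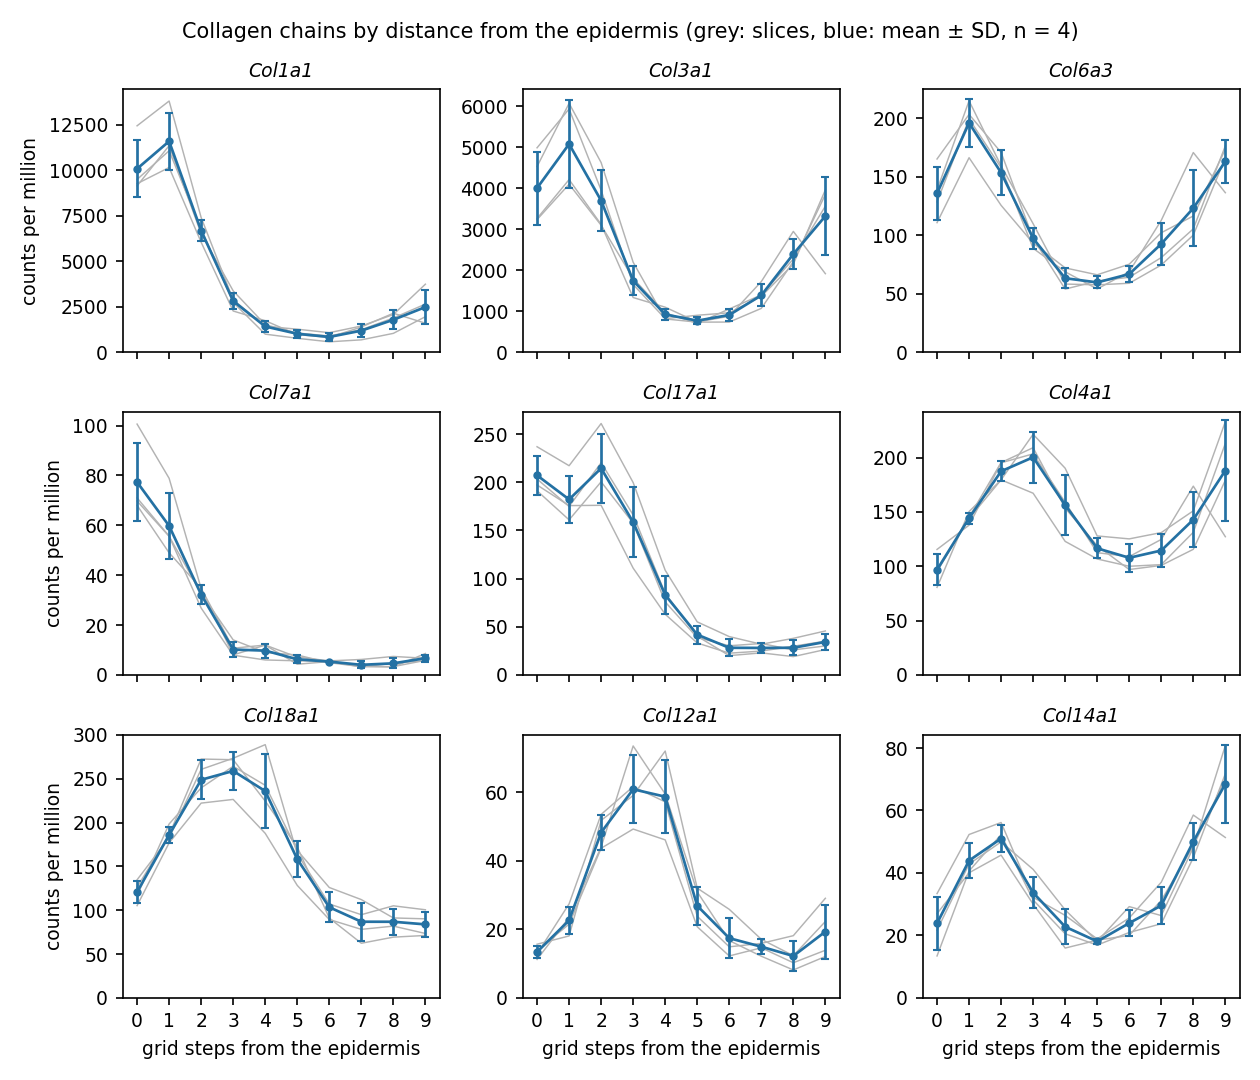
Level of 9 chains (CPM, axes from 0) by grid steps from the epidermis, with each slice in grey and the mean ± SD of 4 slices in blue. *Col1a1* peaks at step 1, *Col7a1* at step 0, *Col18a1* and *Col12a1* at step 3, and *Col14a1* at step 9.

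Dermal and follicle spots were each split at the slice's median distance into superficial and deep spots. In dermal spots 1 of the 18 chains fitted was called, where 1.26% of 6215 genes were called in either direction. That chain was *Col7a1*, with 39.88, 59.91, 62.56 and 40.5 CPM in superficial and 9.75, 26.2, 20.4 and 18.8 in deep spots (log2 1.41 ± 0.29, edgeR adjusted p = 0.00661), and it was no longer called without slice 3, where its log2 fold change was 1.36. *Col1a1* and *Col1a2* were higher in superficial spots (log2 0.63 ± 0.13 and 0.62 ± 0.12) and *Col14a1* in deep ones (78.3 ± 9.88 CPM against 128.3 ± 12.4, log2 -0.73 ± 0.15, adjusted p = 0.00762), all under the fold limit. The epidermal marker list stood at 5777 ± 291.8 CPM in superficial and 3742 ± 1006 in deep dermal spots, the sebaceous gland list at 1698 and 1058, and the muscle list at 1195 and 6154. The part of these lists in the differences was not tested.

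In follicle spots 16 of the 28 chains fitted were called, 15 higher in superficial spots and *Col13a1* lower, where 8.75% of 12395 genes were called higher and 2.08% lower. The highest fold changes were those of *Col9a3* (log2 2.48 ± 0.31), *Col1a2* (2.14 ± 0.16), *Col17a1* (2.12 ± 0.12) and *Col1a1* (2.06 ± 0.21), each with an edgeR adjusted p of at most 1.14e-05. *Col17a1* had 114.0, 143.9, 130.4 and 149.7 CPM in superficial and 25.25, 25.56, 29.53 and 43.82 in deep follicle spots. *Col13a1* had 1.28, 1.12, 1.88 and 3.68 CPM in superficial against 4.66, 4.70, 5.18 and 4.72 in deep spots (log2 -1.26 ± 0.29, adjusted p = 0.002). For neither chain did superficial and deep values overlap. *Col5a2* (log2 1.07 ± 0.13) was no longer called in 3 of 14 alternatives, among them those without slice 1 (0.91) or slice 2 (0.96). The make-up of follicle spots moved with depth as well. From superficial to deep spots the dermal marker list went from 758.7 to 293.6 CPM, the epidermal list from 3316 to 1378, the sebaceous gland list from 1396 to 620.2 and the outer root sheath list from 6757 to 3975, whereas the list of inner sheath, matrix and shaft went from 35690 to 52940 and the melanocyte list from 287.0 to 1014. *Col17a1*, *Col9a3* and *Col13a1* differed between the same follicle compartments, as given above, and the part of this make-up was not tested. The superficial minus deep effect was larger in follicle than in dermal spots for 10 chains by the edgeR test of that difference, where 4.72% of 11852 genes were called in this direction and 0.405% in the other. *Col3a1* was among them, with 0.07 ± 0.13 in dermal and 1.58 ± 0.19 in follicle spots on the log2 scale (difference -1.49 ± 0.25, edgeR adjusted p = 0.0002).

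The genes that make, process and bind collagen were also often higher in dermal spots. These lists hold 67 genes, of which 53 were fitted in the region contrasts and 27 called higher in the dermis, where 6.09% of all genes were. The calls rest on the dermal spots set by the marker list and are not described under the other dermis definition, which reversed the chain results. In dermal spots 6 of 19 fitted genes of collagen folding and modification, 5 of 8 of procollagen processing and cross-linking, 9 of 11 fibril-binding partners, 1 of 6 receptors and 6 of 9 degradation genes were called higher and none lower. *Sparc*, a collagen-binding matrix protein, had 6330, 6974, 5757 and 5544 CPM in dermal and 858.4 to 1074 in follicle spots (log2 1.92 ± 0.09 in the dermal contrast, edgeR adjusted p = 2.19e-16), and *Adamts2*, which removes the amino-terminal propeptide, had 192.8 ± 12.5 CPM in dermal and 28.6 ± 2.20 in follicle spots (log2 1.89 ± 0.08, adjusted p = 1.71e-16). *Ctsk*, a collagen-degrading protease, rose by 1.87 ± 0.13. In the follicle contrast 6, 6, 3, 1 and 4 genes of the same lists were called lower (6.59% of all genes) and none higher, with *Mmp9*, *Pcolce2* and *Tnxb* falling most (log2 -2.04, -1.74 and -1.68). Epidermal spots had 11 genes called higher and 3 lower, beside 7.7% and 4.24% of all genes. *Mmp9*, a gelatinase, had 13.65, 7.71, 11.4 and 12.4 CPM there and 0.525 to 1.40 in follicle spots (log2 2.73 ± 0.28, adjusted p = 3.11e-09), and *P3h4*, a partner of collagen hydroxylases, had 51.1 ± 5.30 CPM in epidermal and 30.7 ± 2.32 in dermal spots (log2 1.73 ± 0.13 in the epidermal contrast, adjusted p = 1.91e-12). In muscle 5 genes were called lower, among them *P3h2* and *Adamts14* (log2 -1.62 and -1.43), beside 6.7% of all genes. *Tmem38b*, an ion channel of the endoplasmic reticulum, was the one gene of these lists called higher there (38.9 ± 3.09 CPM against 14.6 ± 1.15 in follicle spots, log2 1.78 ± 0.11, adjusted p = 4.01e-14). In adipose spots *P3h3*, *Fmod* and *Mmp3* were called lower (log2 -1.19, -1.01 and -1.01). Between superficial and deep follicle spots *Fmod*, a small proteoglycan that binds type I fibrils, had the largest difference of these genes, at 15.1 against 1.83 CPM (log2 3.04 ± 0.29, adjusted p = 6.56e-07).

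The other 16 chains had between 0 and 163 UMIs over all slices, 707 UMIs in all or 0.084% of collagen UMIs. *Col9a1* had no count, and *Col27a1* (163), *Col20a1* (133) and *Col6a5* (82) had the most. *Col2a1* and *Col10a1*, collagens of cartilage, had 18 and 3 UMIs. The low-count filter kept them out of the region contrasts. With no filter, edgeR called 5 of them in 1 region contrast each, all higher, and each on few counts. In that setting 6.34% of all genes were called higher in epidermal, 2.97% in follicle, 4.75% in dermal, 0.974% in adipose and 6.05% in muscle spots. *Col20a1* stood at 3.96, 5.38, 5.96 and 3.90 CPM in dermal spots (20 UMIs, log2 1.48 ± 0.44, adjusted p = 0.00556) and at 0.831 to 1.79 in follicle spots. *Col27a1* had 4.66 ± 0.890 CPM in epidermal spots (23 UMIs, log2 1.15 ± 0.40, adjusted p = 0.0164) and *Col26a1* 1.56 ± 0.417 CPM in muscle spots (22 UMIs, log2 1.22 ± 0.50, adjusted p = 0.0452), although its dermal mean was higher still. The other region calls were *Col22a1* in muscle spots, with 7 of its 12 UMIs there, and *Col2a1* in follicle spots, with 14 of its 18. *Col20a1* and *Col27a1* were also called higher in superficial than in deep follicle spots (log2 1.14 and 1.16), where 7.49% of all genes were.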

How the data were processed

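Visium spatial transcriptomics of P38 dorsal skin was analysed in 4 slices. The authors deposited UMI counts per spot and gene, made with Space Ranger 2.0.1 per the file headers and mm10 per the submitters' processing notes, for spots over tissue, with no pooling of slices. Spots with at least 250 genes were kept (6411 of 6420), and no doublet caller was run. Each spot was scored on 7 marker lists (mean z-score of log counts scaled to 10000) and given the list with a score of at least 0.5 and a margin of 0.25 to the next. Sections lie close together on a slice, so the nearest epidermal spot can belong to a neighbouring section. Section-to-mouse identity was not used here, and a section that the authors set aside as deformed could not be told from the others, so no section was removed.

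For each slice, the counts of a region's spots were added up and the sums tested in edgeR 4.0.16 (R 4.3.3, TMM, filterByExpr, quasi-likelihood). Chains with at least 200 UMIs are named, and of each pathway contrast at most 3 called genes. On simulated data of 11691 genes for the dermal contrast, the test found 90.5% of the 200 that had been shifted by a log2 of 1, and 5.73% of its calls were false. The simulated counts had a single dispersion (0.00606) for all genes and no link between sums of the same slice. Only genes above a count limit were shifted, and no other gene differed between regions. These rates therefore do not cover sparse chains or shared slice effects. The numbers pair the samples, because all region sums of a slice share its sections, and same-slice deviations had mean correlations of 0.241, 0.129, 0.094 and 0.135 over 12054 genes. Positions are from GENCODE M21. Alternatives covered DESeq2 1.42.0, library size alone, the filter, the replicate block, each slice left out, region margins, the dermis definition, spot borders and filter, thinning to 5500 UMIs, the depth split and the anchors. The chains, lists and tests were chosen with earlier results of these data known.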

Additional observations from a re-analysis of the deposited data

Results flagged for a closer look

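Of 140 groups of 4 slice values examined, 3 had a slice far from the other 3, and chance gives about 1 in 20 such groups. *Col1a1* in epidermal spots reached 12700 CPM in slice 1, against 9400 to 9640 in the next slices. *Col23a1* in dermal spots reached 9.74 CPM in slice 4 and *Col4a5* in muscle spots 9.24 CPM in the same slice.

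The superficial over deep effect differed between dermal and follicle spots for 10 chains (edgeR interaction, 4.72% of 11852 genes called lower and 0.405% higher). The dermal minus follicle difference on the log2 scale was -1.67 for *Col17a1* (SE 0.19, adjusted p = 2.59e-06), -1.67 for *Col6a6* (adjusted p = 0.0449), -1.5 for *Col1a2*, -1.49 for *Col3a1*, -1.42 for *Col12a1*, -1.41 for *Col14a1*, -1.41 for *Col1a1*, -1.35 for *Col6a1*, -1.14 for *Col6a2* and -1.04 for *Col5a1*. *Col14a1* and *Col12a1* had opposite signs, with -0.73 and -0.20 in dermal and 0.71 and 1.26 in follicle spots, and the dermal value of *Col12a1* was not called (edgeR adjusted p = 0.776). *Col6a6* was not fitted in the separate dermal split.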

How the results depend on the processing

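Over 848 comparisons of 65 chain results with an alternative, 782 kept direction and call, 52 lost the call and 14 reversed. The 65 results include no contrast between 2 single regions. All 14 reversals came from the dermal contrast with the dermis defined without its list, where log2 fold changes were -1.04 for *Col3a1*, -0.88 for *Col5a2*, -0.57 for *Col6a3*, -0.95 for *Col5a1*, -0.95 for *Col15a1*, -0.47 for *Col8a2*, -0.76 for *Col16a1*, -0.97 for *Col1a2*, -1.23 for *Col7a1*, -0.97 for *Col6a2*, -1.07 for *Col6a1*, -1.0 for *Col1a1*, -0.88 for *Col14a1* and -0.61 for *Col17a1*. That definition gave 8 chains called in the dermis (2 higher, 6 lower) in place of 14, 13 in the epidermis in place of 8, 2 in the follicle in place of 13, 0 in adipose in place of 3 and 6 in muscle in place of 10. The shares of all genes called moved too, to 12% from 6.99%, 17.0% from 11.9%, 5.97% from 8.95%, 1.56% from 3.39% and 9.14% from 12.4%, and its spots held 604.9 CPM of dermal markers in place of 3204. Thinning, which left 18 chains fitted in the regions and 16 in the dermal depth split in place of 27 and 18, gave 5 chains in the epidermis, 0 in the dermal depth split and a log2 basement membrane ratio of 0.61. The margin of 0.75 gave class ratios of 2.03 (fibrillar), 0.80 (basement membrane) and 1.53 (type VI and VIII group). It also gave 0 chains in the dermal depth split, where only slices 1 and 4 kept enough deep spots (24 and 22) for a sum. With all epidermal spots as anchors the log2 ratio of step 0 to step 5 was 3.39. Beyond the fewer chains and sums fitted, the cause of these changes was not tested.

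Leaving out each slice in turn gave 7 to 9 chains for epidermis, 12 to 16 for follicle, 13 to 17 for dermis, 3 to 4 for adipose, 7 to 10 for muscle, 0 to 1 for the dermal and 15 to 17 for the follicle depth split. These region fits held 27 to 29 chains, with 29 for the follicle's 16 and 28 for the dermis's 17. Of 12091 to 12151 genes, 1392 to 1499 were called in epidermis, 1033 to 1109 in follicle, 813 to 874 in dermis, 356 to 420 in adipose and 1449 to 1571 in muscle. The 0 came from edgeR without slice 3, where *Col7a1* had a log2 fold change of 1.36, and DESeq2 on all slices gave 1. With the slice as a replicate block, *Col16a1* (1.00) and *Col17a1* (0.99) lost their dermal call and no other named call changed. Regions from Leiden clusters were not run in the tests, because none of the 12 clusters was led by the dermal list. Interior spots were too few in the dermis in every slice and enough in adipose tissue in slice 1 alone. The region contrasts were therefore not fitted on interior spots, and only the follicle depth split was. Depth limits the chains near 200 UMIs.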
